A study of Mus musculus with 6 samples.

Results

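The 7 genes described here are 6 globin genes and Alas2, measured in the uterus of pregnant mice on 1-colour Illumina bead arrays. A probe belongs to the set where the deposited probe annotation names it Hbb-b1, Hbb-b2, Hbb-y, Hbb-bh1, Hba-a1, Hba-x or Alas2. That rule gave 7 of the 30789 gene names on the array and 19 of its 45281 probes: 11 for Hbb-b1, 2 each for Hbb-y and Hbb-bh1, and 1 each for Hbb-b2, Hba-a1, Hba-x and Alas2. The study has 6 arrays, 3 of uterus taken at 15.5 days post coitum and 3 at 18.5 days, that is, late in mouse pregnancy. The labels give no strain, genotype, treatment or age of the dams. They leave the number of dams per array unstated, and the design text counts more biological replicates a day than there are arrays. The p-values therefore reflect array-to-array spread only, and some of that spread may be technical. The labels name the tissue as uterus, while the design text speaks of myometrium, its muscle layer. By its title the study asks how the uterus is held quiet and then made to contract, and the comparison sets an earlier against a later day of that course.

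Haemoglobin carries oxygen in red cells and is built of alpha-type and beta-type globin chains around haem. In the mouse the first red cells arise in the yolk sac and use the embryonic chains encoded by Hbb-y, Hbb-bh1 and Hba-x; red cells made later in fetal liver and adult marrow use the adult chains encoded by Hbb-b1, Hbb-b2 and Hba-a1. Alas2 encodes the erythroid form of 5-aminolevulinate synthase, the enzyme of the first step of haem synthesis. In a solid organ such transcripts come mainly from immature red cells in the blood, and in the pregnant uterus that blood can be the mother's or, where fetal membranes are included, the fetus's. In tissue arrays, fewer red cells and less globin RNA per red cell cannot be told apart.

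Beta-type globin genes lie together on chromosome 7, alpha-type genes on chromosome 11, and Alas2 on the X chromosome. The bases upstream of the start sites are printed here because 3 genes of the set fell between the days and erythroid factors are known to act on such promoters. Each line gives the 120 bases before the RefSeq start of the gene (build GRCm38.p6), 5′ to 3′ on the strand of the gene, with matches to 4 motifs in capitals. The motifs were the CCAAT box, the CACCC element, the letters GATAA as a form of the GATA site and the letters TATAA as a form of the TATA box, each searched on both strands. Of the 11 Hbb-b1 probes 4 carry the record NM_008220, which belongs to Hbb-bt in this annotation, an adult beta globin gene of the reference strain, and that promoter is shown for them; the other 7 carry cDNA clone records that were not matched to a gene here.
Hbb-bt, chr7:103813924-103814043, minus strand: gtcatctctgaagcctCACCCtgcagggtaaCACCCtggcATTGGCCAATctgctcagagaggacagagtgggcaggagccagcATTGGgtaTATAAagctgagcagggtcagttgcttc
Hba-a1, chr11:32283552-32283671, plus strand: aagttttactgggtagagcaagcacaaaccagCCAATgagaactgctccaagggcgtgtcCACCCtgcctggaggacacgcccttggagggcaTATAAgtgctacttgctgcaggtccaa
Hbb-y, chr7:103853208-103853327, minus strand: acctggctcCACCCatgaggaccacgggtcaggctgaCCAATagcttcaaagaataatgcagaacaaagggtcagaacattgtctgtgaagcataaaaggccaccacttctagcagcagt
Hba-x, chr11:32276480-32276599, plus strand: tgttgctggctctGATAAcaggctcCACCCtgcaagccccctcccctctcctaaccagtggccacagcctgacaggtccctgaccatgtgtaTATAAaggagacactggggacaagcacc
Alas2, chrX:150547297-150547416, plus strand: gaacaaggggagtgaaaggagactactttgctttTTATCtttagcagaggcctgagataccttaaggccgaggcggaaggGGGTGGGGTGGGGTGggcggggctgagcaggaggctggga

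CACCC, the core of the element bound by KLF1, was found in 5 of these 5 promoters, against 31.7% of 32851 RefSeq promoter windows of the same length. CCAAT was found in 3 of 5, those of Hbb-bt, Hba-a1 and Hbb-y (21.3% of all windows), and TATAA in 3 of 5, those of Hbb-bt, Hba-a1 and Hba-x (11.8%). GATAA was found in Hba-x and on the opposite strand in Alas2, so in 2 of 5 (10.5%). In Hbb-bt a CCAAT on each strand lies side by side, from base 80 to base 71 before the start. The CACCC matches of Alas2 all read on the opposite strand and the last of them ends 26 bases before the start. No match of one motif overlapped a match of another in these windows. A match describes the letters only and shows no binding.

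On each array 43.6% to 46.5% of the probes were detected, that is, had a deposited detection p-value under 0.05, with median unnormalized signals of 75.8 to 105 intensity units. All 6 arrays lay on 1 chip, each day in a stretch of its own, and an effect of chip position cannot be told apart from the day. The test used 20701 probes detected on at least 3 of the 6 arrays, and a call means a Benjamini-Hochberg adjusted p under 0.05 from limma over all of them. Each array read a probe of the set with 22 to 72 beads. Signals are given first as unnormalized intensities, which do not correct for the differences between arrays, and changes as differences of normalized log2 intensities, day 18.5 minus day 15.5. The highest signal of an array was 38004 to 40195 at day 15.5 and 33031 to 36398 at day 18.5. Unnormalized signals of bright probes can therefore separate the days by themselves. Those of Prdx2 went from 11080, 10540 and 10380 to 8599, 8446 and 7281, with a normalized change of -0.13 (limma adjusted p = 0.479).

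Hbb-b1, Hbb-y and Alas2 fell from day 15.5 to day 18.5, Hbb-b2, Hba-a1 and Hbb-bh1 did not pass the test, and Hba-x was not in it. Of the 19 probes, 16 entered the test, and 10 of these were called lower and 0 higher, where 13.2% of all tested probes were called lower, 11.6% higher and 24.8% either way; 0 of the 16 were higher at an unadjusted p under 0.05. By gene, 3 of the 6 genes with a tested probe had a called probe, and 2 of 6, Hbb-y and Alas2, when each stood by its brightest probe. By their brightest probe 13.0% of all 14751 genes were called lower and 12.2% higher. The share of all genes with any called probe was not taken, so the 3 of 6 has no background to be read against. The 2 Hbb-y probes entered the test through day 15.5 only, so a difference was built into their selection; of the other 14 probes, detected on both days, 8 were called lower. The 3 values of day 18.5 lay below the 3 values of day 15.5 for 13 of those 14 probes, against 20.8% of all tested probes, and lay above them for 0 of 14, against 20.9%. The 10 tested Hbb-b1 probes read 1 gene or its near-identical copies and are not 10 independent observations. The median fitted change of the 16 probes, those near saturation and those undetected on a day included, was -0.51 and that of all tested probes 0.01, on the log2 scale.

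**Figure D1:**
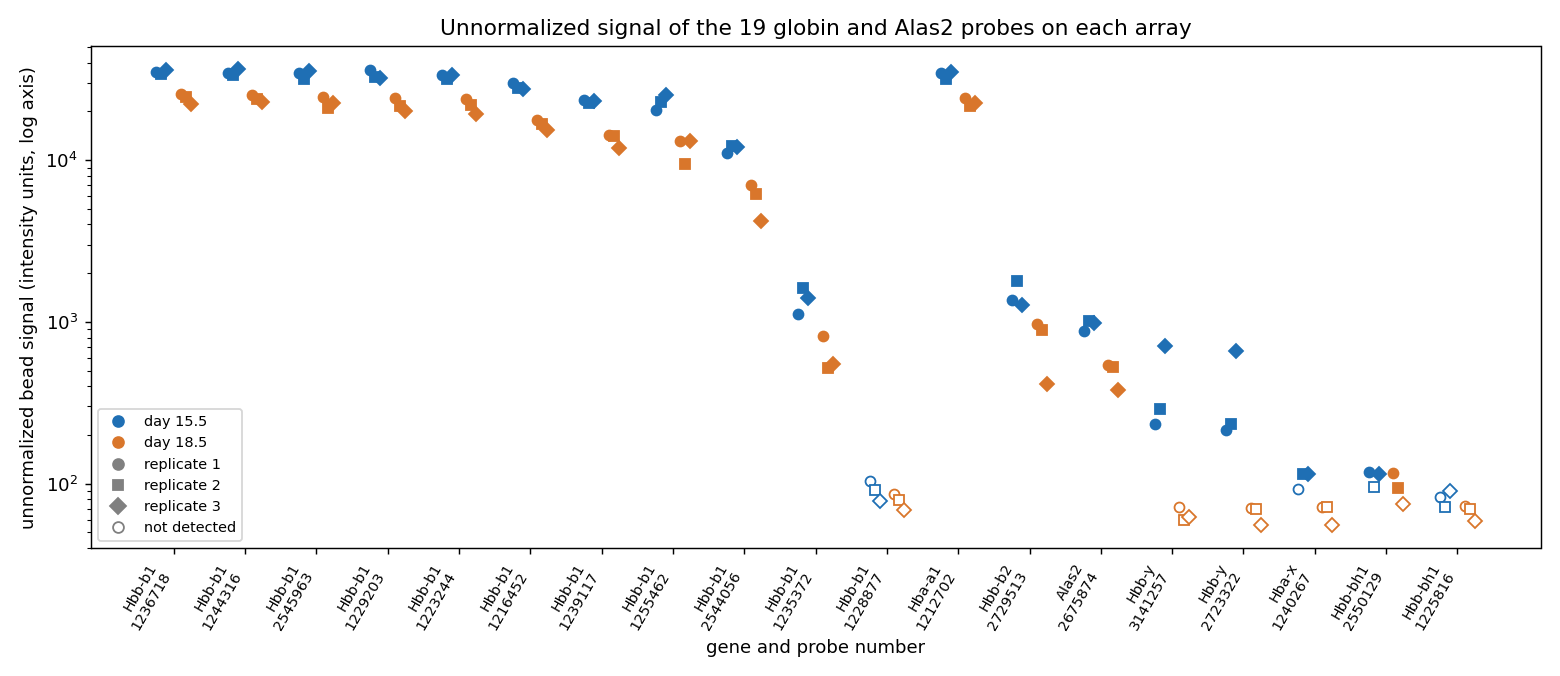
Unnormalized bead signal (log axis) of the 19 globin and Alas2 probes on each of the 6 arrays, blue for day 15.5 and orange for day 18.5, with a marker shape per replicate and open markers where the probe was not detected. The 3 day 18.5 points lie below the 3 day 15.5 points at every tested adult globin and Alas2 probe, and both Hbb-y probes are detected at day 15.5 only. These signals are not corrected for the lower highest signals of the day 18.5 arrays.

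Adult globin probes were among the brightest on the arrays. The highest probe signal of an array ran from 33031 to 40195, and a probe at 0.5 or more of its array's highest signal was treated as near saturation, where a change can be understated. By that measure 6 probes, 5 of Hbb-b1 and that of Hba-a1, were near saturation on every array of both days. A further 3 Hbb-b1 probes were so on every array of day 15.5 only, and the other 10 probes of the set on none. No common ceiling was seen, since the highest signal differed from array to array. Among the 20 brightest probes of an array were 2 to 3 probes of the set at day 15.5 and 0 at day 18.5.

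Hbb-b1 encodes an adult beta globin chain, and 2 of its tested probes lay below 0.5 of the highest signal on every array. Probe ILMN_2544056 had unnormalized signals of 10999, 12276 and 11976 on the day 15.5 arrays and of 7008, 6193 and 4208 on those of day 18.5. All 3 later arrays were lower than all 3 earlier ones. This probe exceeded 0.25 of the highest signal on the day 15.5 arrays, so its fall may also be understated. Its normalized log2 intensity went from 13.40 ± 0.20 (SD, n = 3) to 12.61 ± 0.20, a change of -0.79 ± 0.15 (SE) or 1.73-fold lower (limma adjusted p = 0.00495). Probe ILMN_1235372 lay below 0.25 as well and gave 1124, 1618 and 1411 units at day 15.5 and 814, 520 and 548 at day 18.5. Again the days did not overlap, and the normalized log2 intensity fell from 10.21 ± 0.38 (SD, n = 3) to 9.30 ± 0.26, 1.87-fold lower (log2 change -0.90 ± 0.21, SE; limma adjusted p = 0.0109). Both probes were called under each of the 14 alternatives run for them.

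The 3 Hbb-b1 probes near saturation at day 15.5 only were also called lower. Their fitted folds are given as lower bounds, on the assumption, which was not tested, that saturation hides part of the day 15.5 signal. Such a bound is a point estimate and does not allow for the spread between arrays. With 1 array left out, the log2 change of ILMN_1216452 was -0.57 to -0.49 (main fit -0.52). That of ILMN_1239117 was -0.53 to -0.47 (main fit -0.51), so smaller falls than these bounds were also fitted. Probe ILMN_1216452 fell at least 1.44-fold, from 30128, 27904 and 27644 units to 17810, 16633 and 15452 (limma adjusted p = 0.0093). Probe ILMN_1239117 fell at least 1.42-fold, from 23624, 22700 and 23322 units to 14264, 14020 and 11931 (limma adjusted p = 0.0102). Probe ILMN_1255462 fell at least 1.60-fold (limma adjusted p = 0.035), but this call was lost in 6 of 14 alternatives, 4 of which left out 1 array (adjusted p = 0.0778 to 0.116 there; log2 change -0.49 without day 18.5 replicate 2, a smaller fall than the bound). The 5 Hbb-b1 probes near saturation on all arrays had unnormalized signals of 31506 to 36693 at day 15.5 and 19191 to 25594 at day 18.5, with no overlap of the days. The highest signals of the day 18.5 arrays were lower too, but on the normalized scale the days did not overlap at any of the 5. Of these 5, only ILMN_1223244 and ILMN_1229203 were called (limma adjusted p = 0.0331 and 0.038; the highest of the 5 was 0.0934), and both calls were lost whichever array was left out (adjusted p = 0.0531 to 0.123). No fold is given for them. The remaining Hbb-b1 probe, ILMN_1228877, was detected on no array.

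Hba-a1, which encodes the adult alpha chain, was read by a single probe near saturation throughout. Its unnormalized signals were 34541, 31667 and 35225 at day 15.5 and 24345, 21486 and 22494 at day 18.5. The days did not overlap, but the difference did not pass (limma adjusted p = 0.0763), and no fold is given. It passed under 4 of 15 alternatives, among them no background correction (adjusted p = 0.0304; range over the alternatives 0.0115 to 0.24). RefSeq lists a second adult alpha gene, Hba-a2, whose transcript is nearly identical and had no probe named for it, so the Hba-a1 probe may read both.

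Hbb-b2 encodes the minor adult beta chain and was read by 1 probe far below saturation. It had 1372, 1797 and 1271 unnormalized units at day 15.5 and 966, 892 and 415 at day 18.5. The days did not overlap, with replicate 3 of day 18.5 well below the other arrays. The normalized log2 intensity was 10.31 ± 0.30 (SD, n = 3) and 9.52 ± 0.57, a change of -0.79 ± 0.27 (SE) that did not pass (limma adjusted p = 0.0589). It passed under 7 of 15 alternatives; without day 18.5 replicate 1 or 2 it did (adjusted p = 0.0469 and 0.0405), and without replicate 3 of that day the change was -0.46 (adjusted p = 0.121). Adult beta globin transcripts resemble each other closely, and how far this probe also reads Hbb-b1 is unknown without its sequence.

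Alas2 fell between the days. The unnormalized signals were 874, 1006 and 987 at day 15.5 and 539, 529 and 379 at day 18.5. Every later array was lower than every earlier one. On the normalized log2 scale the level went from 9.66 ± 0.23 (SD, n = 3) to 8.90 ± 0.17, a change of -0.76 ± 0.16 (SE) or 1.69-fold lower (limma adjusted p = 0.00661). The call held under all 15 alternatives run for it, with changes of -0.89 to -0.67.

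Hbb-y, the embryonic beta-type globin of yolk sac red cells, fell to below detection. Probe ILMN_3141257 had unnormalized signals of 235, 291 and 709 on the day 15.5 arrays and of 71.9, 59.6 and 62.3 on those of day 18.5. Probe ILMN_2723322 had 215, 232 and 663 units, then 70.9, 69.3 and 55.2. Both probes were detected on all 3 arrays of day 15.5 and on none of day 18.5, so only a bound can be set on the fold. With the main background correction, the day 18.5 level was taken as the lowest signal that counted as detected. Hbb-y was then at least 6.10-fold lower at day 18.5 by the former probe (limma adjusted p = 0.000559) and at least 5.19-fold lower by the latter (adjusted p = 0.00121). These bounds depend on that correction. Without it the fitted log2 changes were -2.29 and -2.10, and with an offset of 50 they were -2.36 and -2.16, all smaller falls than the bounds. Both calls held under every alternative that could be run.

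Among the day 15.5 arrays Hbb-y also differed more than the other tested genes of the set. Replicate 3 of day 15.5 was 4.57-fold and 4.81-fold above replicate 1 at the 2 probes, on the normalized scale, and 2.99-fold and 3.71-fold above replicate 2. Over the 6 arrays the 2 probes had a Pearson's r of 0.996. At Alas2 the highest day 15.5 array exceeded the lowest 1.34-fold, and at the tested adult beta globin probes by 1.02-fold to 1.66-fold. Without replicate 3 the bound on the fall of Hbb-y was at least 3.94-fold by the former probe and at least 3.21-fold by the latter, and both probes were still called (limma adjusted p = 6.62e-05 and 4.71e-05). Markers of the yolk sac endoderm did not share 1 pattern: Afp and Apoa1 were detected on 0 of the 3 day 15.5 arrays, while Rbp4 and Amn were detected on all 6 arrays and fell. In replicate 3 of day 15.5 the log2 intensity of Trf was 10.27, against 9.80 and 9.79 in replicates 1 and 2, that of Slc13a4 5.64 against 4.76 and 4.99, and that of Amn 9.48 against 10.47 and 9.57. Rbp4 (9.482 against 9.134 and 9.295), Sox17 (8.874 against 8.62 and 8.737) and Apoc2 (5.856 against 5.846 and 5.098) were also highest in replicate 3. Hnf4a (5.464 against 5.633 and 5.576) was lowest there, like Amn. Slc13a4 was detected on 1 array of day 15.5 and 0 of day 18.5 and was not among the measured markers. The summed signal of the 8 measured markers was 2700 to 3310 at day 15.5, with Alb and Cubn detected on no array, and their part in the Hbb-y levels was not tested.

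**Figure D2:**
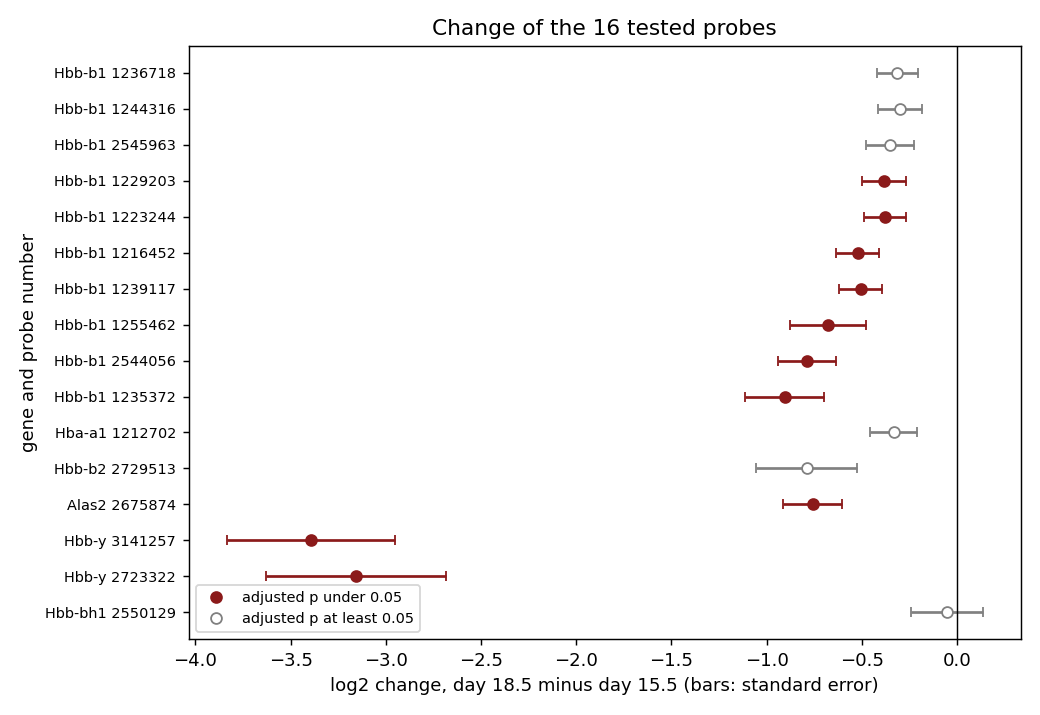
Log2 change, day 18.5 minus day 15.5, with its standard error, for the 16 tested probes, filled where the limma adjusted p was under 0.05. Both Hbb-y probes lie near -3, Alas2 and the dimmer adult beta globin probes between -0.5 and -0.9, the brightest adult globin probes near -0.3 and Hbb-bh1 at -0.05. The Hbb-y values are fitted changes of a gene not detected at day 18.5 and depend on the background correction, and those of probes near saturation may be understated.

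Hba-x and Hbb-bh1, the other embryonic chains, stayed close to the limit of detection. Hba-x, the alpha-type partner, was detected on 2 of the 3 day 15.5 arrays and on 0 of day 18.5, with unnormalized signals of 92.2, 115 and 115, then 72.2, 71.7 and 55.5. The days did not overlap, but the probe missed the detection filter and was not in the main test. Tested without that filter, its log2 change was -0.81 ± 0.23 (SE), with a limma adjusted p of 0.0845. The brighter Hbb-bh1 probe, ILMN_2550129, was detected on 2 arrays of each day, at 119, 94.9 and 115 units, then 116, 94.1 and 75.3. Its days overlapped, and the change of -0.05 ± 0.19 (log2, SE; limma adjusted p = 0.871) turned positive without replicate 3 of either day (0.09 and 0.10). The other Hbb-bh1 probe, ILMN_1225816, was detected on no array. At these signals a change of Hbb-bh1 was not detectable, which does not show that its level was the same.

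In the authors' deposited table, all 19 probes had a ratio of day 18.5 over day 15.5 below 1. The share of all probes with such a ratio was not taken, so this count has no background to be read against. Of the 19, 11 are probes of Hbb-b1, and ILMN_1228877 and ILMN_1225816 were detected on no array. The authors' deposited table gave a false discovery rate under 0.05 to 8 of the 19, where 5.69% of all 43887 probes with a ratio met that rate with a ratio below 1 and 4.66% with a ratio above 1. The authors' deposited table gave the Hbb-y probes ratios of 0.0368 and 0.0443 and Hba-x a ratio of 0.343 with a rate of 0.0091. Alas2 had a ratio of 0.583 and a rate of 0.0149 in the authors' deposited table. Hbb-y and Hba-x were undetected at day 18.5, and Hba-x was detected on only 2 of the 3 day 15.5 arrays. The ratios of these 2 genes therefore rest on a signal below detection and are no measure of the fold.

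Other genes of red cells did not move in 1 direction. Among 26 genes of the red cell membrane and red cell enzymes 15 were measured, of which 5 fell, 4 rose and 6 were not called (median log2 change 0.01); over all 14751 genes, each by its brightest tested probe, 13.0% were lower and 12.2% higher, with a median of 0.02. Ahsp, which encodes the chaperone of free alpha globin, had log2 intensities of 8.34, 7.84 and 7.47 at day 15.5 and of 6.66, 6.51 and 7.19 at day 18.5, a 2.14-fold fall (limma adjusted p = 0.009). Slc4a1, the anion exchanger band 3 of the red cell membrane, went from 7.15 ± 0.017 (SD, n = 3) to 6.05 ± 0.16, also a 2.14-fold fall (limma adjusted p = 0.000259). Ank1, the ankyrin that ties band 3 to the membrane skeleton, fell 3.09-fold, from 9.15, 9.16 and 9.14 to 7.69, 7.71 and 7.16 (limma adjusted p = 0.000107). Tmod1, a cap of actin filaments also made by muscle, fell 2.38-fold and Gypc, glycophorin C, 1.49-fold. Leaving out 1 array left 4 to 5 genes of the list lower and 3 to 4 higher; under a strict filter (detection p-value under 0.01 on all 6 arrays) 1 was higher.

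Trim10, Add2 and Car2 were among the 4 that rose. Trim10, known in the mouse from maturing red cells, was detected on 2 arrays of day 15.5 and rose from 5.51 ± 0.20 (SD, n = 3) to 7.11 ± 0.43 (limma adjusted p = 0.00063). Add2, a beta adducin of the membrane skeleton, was at least 1.18-fold higher, but it was undetected at day 15.5 and entered the test through day 18.5 only. Car2, a carbonic anhydrase that many tissues make, was 1.47-fold higher. Prdx2, the brightest of the list, changed by -0.13 (limma adjusted p = 0.479). Epb42, Rhd, Kel, Icam4, Ermap, Tspo2, Car1 and Pklr were detected on no array.

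The erythroid transcription factors lay mostly below detection. Of 12 listed genes 4 were measured, with 0 lower, 1 higher and 3 not called (median 0.27). Gata1, Gfi1b, Hemgn and Sox6 were detected on no array, and Klf1, whose product is known to bind CACCC elements, on 1 of day 15.5 and none of day 18.5. Its binding to the promoters above was not tested. Unnormalized signals of Klf1 were 109, 94.7 and 114 at day 15.5 and 100.1, 81.1 and 65.1 at day 18.5, with overlapping days. Tal1 changed by 0.25 (limma adjusted p = 0.234), Ldb1, the brightest, by 0.29 (adjusted p = 0.145) and Lmo2 by -0.45 (adjusted p = 0.0917). In 4 of 15 alternatives, 1 of them without day 15.5 replicate 1, 1 gene of the list was called lower. Bcl11a, known in the mouse to silence embryonic globin genes in definitive red cells but made by lymphoid cells as well, was detected at day 18.5 only and was at least 1.47-fold higher there (limma adjusted p = 0.00778). It entered the test through that day only, which built in a difference, and under the strict filter 0 genes of the list were higher. Of the other globin-type genes 2 of 9 were measured: Cygb, cytoglobin of fibroblast-like cells, fell 1.43-fold (limma adjusted p = 0.0386; the call was lost in 7 of 15 alternatives, among them without day 15.5 replicate 1 or 3 and without day 18.5 replicate 2 or 3), and Ngb, neuroglobin, changed by -0.15 (adjusted p = 0.57).

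In haem synthesis, Fech was the only called gene of 13 measured of 16 listed, with 1 lower, 0 higher and 12 not called (median -0.10); 2 to 3 genes were lower in 7 of 15 alternatives. Fech encodes ferrochelatase, which puts iron into the porphyrin ring in the last step of the pathway that ALAS2 opens. Its log2 intensities were 6.93, 7.41 and 7.46 at day 15.5 and 6.47, 6.60 and 6.31 at day 18.5, a 1.75-fold fall (limma adjusted p = 0.00649). Alas1, the form of the first enzyme found in all tissues, changed by 0.10 (adjusted p = 0.612), and Tfrc, the transferrin receptor, by -0.12 (adjusted p = 0.653). Among 12 measured genes of haemoglobin and haem clearance 2 fell, 2 rose and 8 were not called (median 0.14). The count lower was 1 without any array but day 18.5 replicate 3, and the count higher 1 without day 15.5 replicate 2 or 3 or day 18.5 replicate 1 or 2. Hmox1, the inducible haem oxygenase, fell 1.35-fold and Lrp1, a receptor of haemopexin with bound haem, 1.92-fold, while Slc40a1, the iron exporter ferroportin, rose 1.75-fold and Hmox2, the constitutive haem oxygenase, 1.35-fold (limma adjusted p = 0.00447 to 0.0278). Fth1, ferritin heavy chain and the brightest, changed by -0.14 without passing (limma adjusted p = 0.432). It was near saturation on every array, where a change can be understated.

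**Figure D3:**
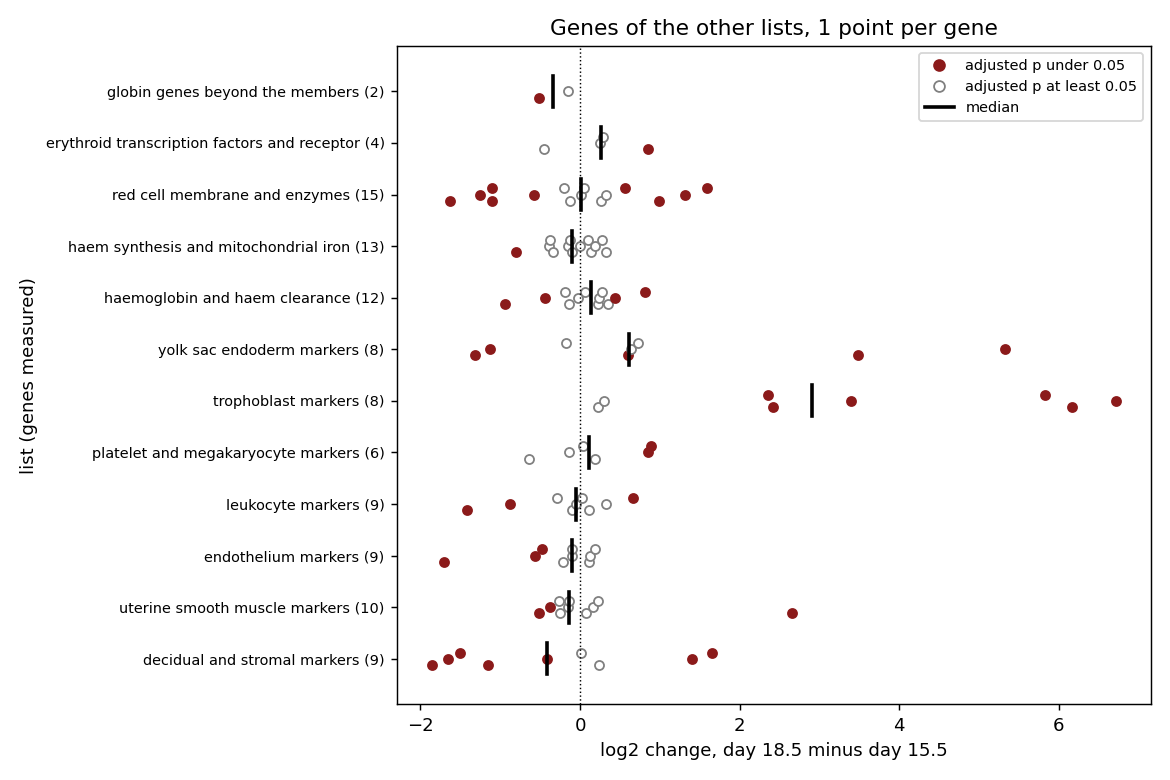
Log2 change, day 18.5 minus day 15.5, of the measured genes of 12 lists, 1 point per gene by its brightest tested probe, filled where the limma adjusted p was under 0.05, with a bar at the median of each list. Red cell membrane genes spread to both sides of 0 and 12 of 13 haem synthesis genes were not called.

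Markers of other cell types are given beside the share over all genes, 13.0% lower and 12.2% higher, and their part in the globin result was not tested. All 10 listed smooth muscle markers of the uterus were measured, 2 lower (Smtn, 1.43-fold, and Lmod1, 1.30-fold), 1 higher and 7 not called, Mylk the brightest among these (median -0.14). Of the 3 tested Mylk probes 2 were called lower, though not the brightest, which was near saturation on every array. The 1 higher was Oxtr, the oxytocin receptor, undetected at day 15.5 and at least 4.33-fold higher at day 18.5 (limma adjusted p = 4.1e-06). Oxtr entered the test through day 18.5 only, which built in a difference. Whichever array was left out, 1 was lower. The summed normalized signal of these 10 was 140000 to 151000 at day 15.5 and 138000 to 147000 at day 18.5. Mylk, Acta2, Actg2 and Des were near saturation on every array, so a change in this sum can be understated. Endothelial markers fell in 3 of 9 cases and rose in 0 (median -0.10), with Esam, the brightest, not called and Kdr detected on no array. Cdh5, the cadherin of vessel walls, fell 3.24-fold, Emcn 1.48-fold and Pecam1 1.39-fold (limma adjusted p = 5.45e-05 to 0.039), and the summed endothelial signal was 12500 to 15400 at day 15.5 and 9670 to 11100 at day 18.5. The endothelial count lower differed from 3 in 5 of the 6 fits that left out 1 array. It was 1 without day 15.5 replicate 3, and 2 with the replicate number as a block. Platelet genes, which travel in the same blood as red cells, rose in 2 of 6 cases and fell in 0 (median 0.11; sums 1500 to 1870, then 1040 to 1650). The 2 were Treml1, 1.85-fold, and Ppbp, 1.80-fold, while the brightest, Pf4, changed by -0.64 without passing (limma adjusted p = 0.0784); Gp1bb, Gp5 and Gp6 were among those detected on no array. Without day 18.5 replicate 2 the platelet count lower was 1. Leukocyte markers gave 2 lower (Cd3g, 2.66-fold, and Ptprc, 1.83-fold), 1 higher (S100a9, 1.59-fold) and 6 not called, the brightest, Adgre1, among them (median -0.05; sums 2480 to 2980, then 2750 to 3080). Cd8a, Itgam and Elane were among those detected on no array. The leukocyte count higher was 0 without day 15.5 replicate 1 or 2 or day 18.5 replicate 1 or 2, and under the strict filter the count lower was 0.

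Trophoblast markers rose at day 18.5 while the embryonic globin Hbb-y fell. Of 8 measured trophoblast markers 6 rose, 0 fell and 2 were not called (median fitted change 2.91, or 2.4 with the undetected genes at their bound). Of the 6, 5 were undetected on the day 15.5 arrays and entered the test through day 18.5 only, which built in a difference, and under the strict filter 0 were higher. Summed signals were 359 to 428 at day 15.5 and 4920 to 16200 at day 18.5. Prl7b1 and Prl2a1, prolactin-like hormones of the placenta, were undetected at day 15.5 and at least 95.4-fold and 31.8-fold higher at day 18.5, and Prl2c2 rose 71.5-fold (limma adjusted p = 4.07e-06 to 3.6e-05). Prl2c2 was detected on 2 of the 3 day 15.5 arrays, at 126.5, 103.4 and 79.5 unnormalized units. That is near the limit of detection, where the size of a fold can depend on the background correction. Prl3d1, Tpbpa, Gcm1, Syna, Synb, Hand1 and Ctsq were detected on no array. Of 8 measured markers of yolk sac endoderm 3 rose, 2 fell and 3 were not called (median 0.62; sums 2700 to 3310, then 2920 to 7970). The count lower was 1 without day 15.5 replicate 1 or 2 or day 18.5 replicate 1. The yolk sac count higher was 2 without any 1 array of day 15.5 or without day 18.5 replicate 2, and 1 under the strict filter. Apoa1 was at least 29.3-fold and Afp at least 6.43-fold higher, but both entered the test through day 18.5 only, which built in a difference. Rbp4 fell 2.49-fold, and Trf, the brightest, changed by 0.73 without passing (limma adjusted p = 0.0682). Decidual and stromal markers gave 2 higher, 5 lower and 2 not called of 9 (median -0.42; sums 44700 to 48600, then 35900 to 38200), with Bmp2 detected on no array. The decidual count lower was 4 in 5 of the 6 fits that left out 1 array. Wnt4 rose 3.17-fold, Col1a1 fell 3.64-fold and Hoxa10 2.84-fold (limma adjusted p = 3.73e-05 to 8.45e-05), and Dcn, the brightest, changed by 0.01. Dcn was near saturation on every array, where a change can be understated.

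The genes whose log2 intensities followed a gene of the set most closely over the 6 arrays were taken from 10514 named genes, 3 for each, and are given as a description. Alas2 was followed by Scn7a (Pearson's r = 0.997), by Fech (0.997), its partner in haem synthesis, and by Gprk6 (0.995). Hbb-b1, by its probe ILMN_1216452, was followed by Tmco3, Nr1h4 and Plec1 (each 0.995), and Hbb-b2 by Clic4 (0.998), Sult1a1 (0.993) and Mospd3 (0.991). Hbb-y was followed by the complement gene C2 (0.999), Wsb2 (0.996) and Emilin2 (0.995). Hba-a1 was followed by Hipk3 (0.995), Nin (0.990) and Wdr7 (0.989), and Hbb-bh1 by Defa1 (0.989), Terf2 (0.989) and Adcy6 (0.986). The 6 points share the arrays and, for most of these genes, a difference between the days, so nothing beyond a like pattern can be read from these values.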

How the data were processed

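Total RNA of 6 uterus samples, 3 a day, was read on 1-colour Illumina arrays. Per the file headers, the unnormalized table gives mean bead signals, an intensity, and a p-value of detection for 45281 probes. The authors' comparison table adds intensities on a linear scale; their sorted values differ between arrays by at most 3.89 units, as after quantile normalization, and the deposited value table repeats them. It also holds a ratio and a false discovery rate (q-value) deposited by the authors, sorted apart from the probes and joined here by symbol and ratio of geometric means within a relative tolerance of 1e-05 (43887 of 43887 placed). The software and test behind these values are not given in the sources used here. Bead standard errors were not used.

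From the unnormalized intensities, limma 3.58.1 (R 4.3.3) made log2 values with neqc (background from detection p-values, offset 16, quantile normalization). Each probe passing the detection filter was fitted singly by lmFit and eBayes, two-sided and without a block; the code was tested on simulated data. Where a day had no detected array, its level was bounded: per array, the higher of the probe's signal and the dimmest detected signal, averaged over the 3 arrays and set against the other day's mean. Such bounds hold for the main background correction and its offset only. The 3 probes near saturation at day 15.5 were bounded by their measured means.

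Genes of 12 lists were matched by symbol, alternative symbol or RefSeq synonym, and each stands by its brightest tested probe. All probes of the set are named. Of a list, the rule names the brightest gene and up to 3 called genes of smallest adjusted p; other list genes were named after their values were seen. A few list genes are counted but not reported here by name. For each tested gene of the set it also names the 3 genes of most similar pattern. The 7 genes, the lists and the rules were chosen with earlier results of these data known.

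Same-numbered arrays of the 2 days did not deviate together (r of -0.16, 0.14 and -0.07), so the numbers were not taken as pairs. Alternatives were: no background correction; an offset of 50; median scaling; the authors' intensities floored at 16; no detection filter; detection p-values under 0.01 on every array; the brightest probe of a gene; a trended, robust variance; a replicate block; each array left out; and 0.25 in place of 0.5 as the mark of saturation.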

Additional observations from a re-analysis of the deposited data

How the results depend on the processing

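Of 227 tests of a probe of the set under an alternative, 182 kept direction and side of the threshold, 20 lost a call, 23 gained one and 2 turned direction without a call. Both Hbb-y probes, Alas2 and 4 Hbb-b1 probes (ILMN_1235372, ILMN_2544056, ILMN_1239117 and ILMN_1216452) were called under every alternative that could be run for them; under the strict detection filter the Hbb-y probes and Hbb-bh1 could not be tested. The changes that follow are fitted values, which for probes near saturation do not measure the size of a fall. With no background correction the gained calls were ILMN_1244316 (log2 change -0.30), ILMN_1236718 (-0.32), ILMN_2545963 (-0.35), Hbb-b2 (-0.74) and Hba-a1 (-0.34). An offset of 50 gained ILMN_1236718 (-0.31), ILMN_2545963 (-0.35), Hbb-b2 (-0.76) and Hba-a1 (-0.33). A trended and robust variance gained ILMN_1244316 (-0.30), ILMN_1236718 (-0.31), ILMN_2545963 (-0.35) and Hba-a1 (-0.33). The strict filter gained ILMN_1236718 (-0.31) and Hbb-b2 (-0.79), and no filter gained ILMN_1236718 (-0.31) and lost ILMN_1255462 (-0.68). The authors' intensities also lost ILMN_1255462 (-0.68). Median scaling gained ILMN_2545963 (-0.39), Hbb-b2 (-0.91) and Hba-a1 (-0.38); it moved the median of all probes from 0.01 to -0.11 and the share of higher among all calls from 46.8% to 29.4% (1698 higher, 4074 lower). Relative to that median, Alas2 changed by -0.78, Hbb-b1 by -0.92 to -0.24 and Hbb-bh1 by 0.04.

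With the replicate number as a block, which the arrays' deviations gave no ground for, 9 probes of the set were called: ILMN_1229203 (-0.38) and ILMN_1223244 (-0.38) lost the call and Hbb-b2 (-0.79) gained it; 2424 probes in all were lower and 2097 higher. Leaving out 1 array left 7 to 9 probes of the set called lower. The ranges of the log2 change were then -0.43 to -0.35 (ILMN_1229203; adjusted p = 0.0531 to 0.123), -0.40 to -0.36 (ILMN_1223244; 0.0542 to 0.104), -0.87 to -0.49 (ILMN_1255462), -0.43 to -0.28 (ILMN_2545963), -0.97 to -0.46 (Hbb-b2) and -0.20 to 0.10 (Hbb-bh1, 0.09 and 0.10 without replicate 3 of day 15.5 and of day 18.5). With the brightest probe per gene 2 genes of the set were called lower, Hbb-y and Alas2, since 1 probe near saturation then stands for Hbb-b1. Under the strict filter 6 genes of the lists were called higher, against 22, which leaves untested any gene undetected on an array. At 0.25 of the highest signal 9 probes in place of 6 were near saturation throughout, and ILMN_2544056 was so at day 15.5. The cause of the other changes was not tested.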
